A study of Mus musculus with 2 samples.

Results

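The miR-379 to miR-410 cluster is a run of microRNA (miRNA) genes in the imprinted Dlk1-Dio3 domain of mouse chromosome 12, measured here in the newborn adrenal gland. Its members were chosen by position: every miRNA gene row of the deposited tables that starts between Mir379 and position 109747960 of chromosome 12 (mm10), the end of Mir3072. This gave 38 of 1973 miRNA gene rows, spread over 38.9 kb. The samples are adrenal glands of mice of strain B6NCrl at postnatal day 0, with no treatment, altered allele or second group. Each of 2 libraries came from both adrenals of 1 pup, and the pups shared a pregnancy, so they are called pup 1 and pup 2. The sample descriptions number the pups separately while the donor identifier is shared, and if that identifier meant a single animal, the spread between the libraries would be technical. Sex was not collected. A whole gland mixes steroid-producing cortex, chromaffin cells of the medulla, vessels and stroma, so fewer expressing cells and less RNA per cell cannot be told apart.

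Genes of this cluster are transcribed from the maternally inherited chromosome, together with the long noncoding RNAs Meg3, Rian and Mirg. The hairpins are cut out of long precursors by Drosha and then Dicer, and each can yield a mature miRNA from its 5p and its 3p arm. Mature miRNAs lead Argonaute proteins to transcripts that pair with the seed, bases 2 to 8, and repress them. The cluster is found in placental mammals, is best known from brain, and in mice its deletion disturbs metabolic adaptation at birth. The transcription factor Mef2 drives it in neurons.

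The same-strand gene counts totalled 1131762 in pup 1 and 3327743 in pup 2, a depth ratio of 2.94. Levels are given as CPM, the counts scaled to a same-strand total of 1000000. For Mir409, Mir376a, Mir380 and Mir299a, the tables hold a row on the opposite strand of the same place (Gm24321, Gm25252, Gm25750 and Mir299b), so their level was taken from the opposite-strand column. As a check of the tissue label, the neuroendocrine miRNAs Mir375, Mir7b, Mir7-1 and Mir7-2 were all present. They summed to 39764.5 CPM in pup 1 and 33410.0 in pup 2, most of it from Mir375. The hepatocyte miRNA Mir122 was present too, at 2979.4 and 4080.5 CPM. The mature miR-7a-5p lies whole in the hairpins of both Mir7-1 and Mir7-2, so its reads would map to several loci. Reads that map to several loci stand in a row of their own and in no gene, and they made up 34.95% and 32.2% of all reads. Of 8 measured neuronal marker rows, 3 had a count, summing to 864 and 886 CPM, most of it from Mir137. The rows of the Mir124a and Mir9 genes were at 0, but these are multi-copy genes whose copies share mature sequences, so their reads would not be counted in a gene and the zeros are no reading of neuronal RNA. For Mir9-2 and Mir9-3, both mature sequences were found whole in the hairpins of the other copies.

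The sequences below are the mature miRNAs of the 8 most abundant members and of members that share a seed, since counts per gene do not separate the arms and the seed decides which transcripts are bound. They are RefSeq sequences of GRCm38.p6, the assembly also called mm10, written 5′ to 3′ with the seed in capitals. The first seed group joins the 3p arms of the neighbours Mir379 and Mir411.
mmu-miR-379-3p: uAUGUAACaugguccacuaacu
mmu-miR-411-3p: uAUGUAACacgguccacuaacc
The 5p arm of Mir379 shares its seed with that of Mir1193, and the 5p arm of Mir411 has another one.
mmu-miR-379-5p: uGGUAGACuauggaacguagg
mmu-miR-1193-5p: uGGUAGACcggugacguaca
mmu-miR-411-5p: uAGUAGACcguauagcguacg
The remaining 3 shared seeds pair Mir1197 with Mir758, Mir494 with Mir410, and Mir453 with Mir496a.
mmu-miR-1197-5p: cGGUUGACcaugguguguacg
mmu-miR-758-5p: uGGUUGACcagagagcacacg
mmu-miR-494-5p: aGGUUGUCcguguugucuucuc
mmu-miR-410-5p: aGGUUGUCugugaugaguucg
mmu-miR-453: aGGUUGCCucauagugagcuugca
mmu-miR-496a-5p: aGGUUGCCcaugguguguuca
Among the sequences in that table, which has no entry for miR-487b-3p, those of the other abundant members share no seed within the cluster.
mmu-miR-487b-5p: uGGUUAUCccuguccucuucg
mmu-miR-409-5p: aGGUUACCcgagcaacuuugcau
mmu-miR-409-3p: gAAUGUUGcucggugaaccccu
mmu-miR-382-5p: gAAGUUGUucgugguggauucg
mmu-miR-382-3p: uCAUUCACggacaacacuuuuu
mmu-miR-541-5p: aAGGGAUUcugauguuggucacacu
mmu-miR-541-3p: uGGCGAACacagaauccauacu
mmu-miR-369-5p: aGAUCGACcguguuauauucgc
mmu-miR-369-3p: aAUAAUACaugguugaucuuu
mmu-miR-299a-5p: uGGUUUACcgucccacauacau
mmu-miR-299a-3p: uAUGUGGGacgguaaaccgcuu

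RefSeq held 69 mature sequences for 37 of the 38 members, all but Gm27379. They carried 64 distinct seeds, of which 5 were shared by 2 members, so 9 genes took part in a shared seed. A further 12 of the 64 seeds also occur in a mature miRNA that is not among the 69, such as that of miR-329-3p in miR-362-3p. These other miRNAs include miR-376b-5p and miR-299b-3p, whose genes lie in the window. No mature sequence of the 69 was found whole in another RefSeq hairpin on either strand. A run of 16 bases in common with another hairpin was found for 5 of them, from Mir299a with the Mir299b row of the same place, Mir376c with Mir376b, and Mir300 with Mir381 in both directions. Counts of Mir300, Mir381 and Mir376c could therefore exchange reads with a close copy. Mir376b lies in the window but has no row in the tables and was not analysed here.

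The cluster held 7.89% of miRNA gene counts in pup 1 (exact Clopper-Pearson 95% interval 7.84 to 7.94) and 8.79% in pup 2 (8.76 to 8.82), a mean of 8.34% ± 0.634 (SD, n = 2 pups). The denominator of this share is the same-strand total with the opposite-strand counts of the 4 genes added. It leaves out reads that map to several loci, which can lower the counts of multi-copy genes and so raise the share. Intervals cover counting error only, since reads amplified by PCR are not independent molecules. A level of 10 CPM or more in both pups was reached by 33 of 38 members, against 14.1% of all 1973 rows. A mean of at least 1000 CPM was reached by 13 members, against 4.11% of all rows. Of the 1973 rows, 638 had a count in either pup, so both background shares include many rows without reads. Most of the cluster was thus measurable in the gland, and its median member lay at 443 CPM.

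Counts were concentrated in few members. Mir411 had 13747.6 CPM in pup 1 and 19524.0 in pup 2, a mean of 16635.8 ± 4084.6 (SD, n = 2), and made up 17.2% and 21.9% of the cluster's counts. Mir487b had 11234.7 and 12265.4 CPM, the second level of the cluster in both pups. The 2 pups' values of Mir411 and Mir487b did not overlap.

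The next 4 members lay close together. Mir379, which opens the cluster, had 9047.8 CPM in pup 1 and 8924.7 in pup 2. Mir409 had 8394.0 and 9117.0 CPM from the opposite-strand column. Mir382 had 9361.5 and 6803.7 CPM, and its place in the order differed between the pups. These 3 genes overlapped in their ranges, so their order was not resolved. Mir541 had 7029.7 and 6533.9 CPM, which overlapped with Mir382 alone among them.

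Mir369, whose mature miRNA is known for acting on AU-rich transcripts, had 4396.7 and 6313.6 CPM, below Mir541 in both pups. Together the 7 genes named so far with a mean over 5000 CPM held 79.0% of the cluster's counts in pup 1 and 77.8% in pup 2. They stood among the 35 most abundant of all 1973 rows. This place is among reads that map to a single locus, since rows of multi-copy genes lack reads that map to several loci.

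A middle group of 6 members lay between 1000 and 5000 CPM. Mir299a had 2940.5 CPM in pup 1 and 3260.5 in pup 2, from the opposite-strand column. Mir381, known with Mir134 and Mir329 for a part in dendrite growth, had 2210.7 and 2771.5 CPM. Mir376a, of the miR-376 group whose precursors are known for A-to-I editing in brain, had 1622.2 and 2549.2 CPM from the opposite-strand column. In each of these 3 genes pup 2 was the higher one.

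The other 3 of this group came closest to 1000 CPM. Mir1193 had 1518.9 and 1823.2 CPM, and Mir154 had 1331.6 and 1769.1 CPM. Mir134, known for limiting the size of dendritic spines through Limk1, had 1078.0 and 942.1 CPM. The 12 most abundant members, which leave out Mir134, held 91.1% and 91.5% of the cluster's counts.

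Of the rest, 18 members had a mean between 100 and 1000 CPM, from 115.6 for Mir412 to 679.2 for Mir380. Mir380, the last of the genes taken from the opposite-strand column, had 554.9 and 803.6 CPM. Among the neuronal miRNAs in that range, Mir485 had 599 and 603 CPM and Mir329 had 397 and 427 CPM. Only Mir495, at 98.5 CPM, and Mir758, at 17.9 CPM, fell between 10 and 100 CPM.

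The 5 members below 10 CPM rested on a handful of counts. Mir1197 had 4 and 8 counts, Mir544 had 1 and 8, and Gm27379 had 2 and 1. Mir654 and Mir453 had no count in either pup, and a limit of 3 counts corresponds to 2.65 CPM for pup 1 and 0.902 CPM for pup 2. A count of 0 at this depth does not show that these genes are silent.

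**Figure D1:**
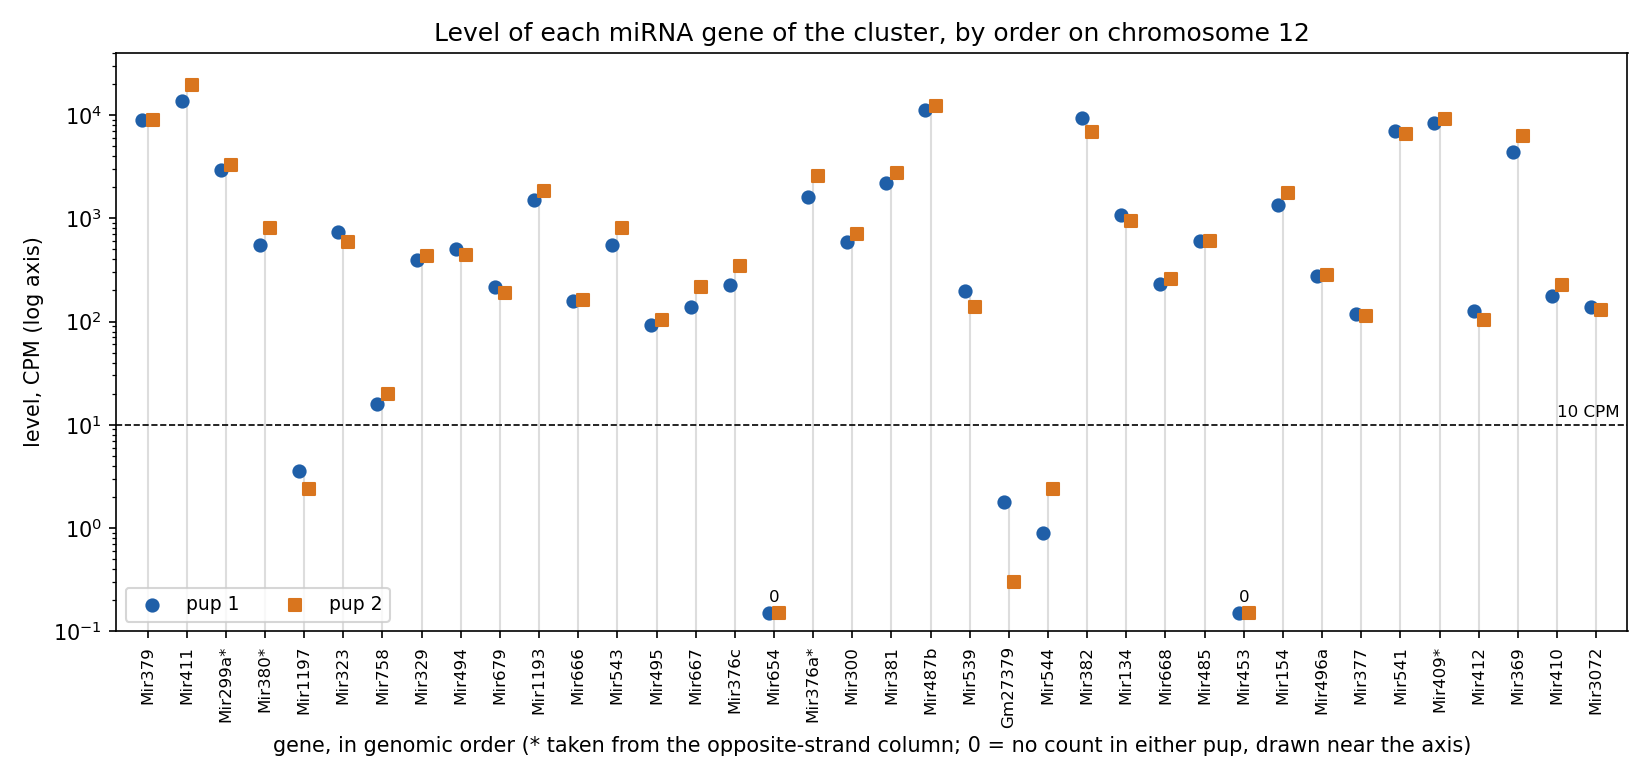
Level of the 38 genes in genomic order, in CPM on a log axis, with circles for pup 1 and squares for pup 2; the dashed line marks 10 CPM. The symbols of the pups lie close together for each gene with more than 10 CPM, while adjacent genes can lie far apart, such as Mir1197 and Mir323 with 209-fold and 245-fold; Mir654 and Mir453 have no count and are drawn near the axis, marked 0.

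Rows of the tables are hairpin genes of 49 to 123 bases, and a read covers a mature miRNA and not the whole row, so levels were not divided by length. Dividing the mean CPM by row length kept all 8 of the 8 most abundant members. Across the 38 members, levels in the pups had a Spearman correlation of 0.99, a description over genes that share their libraries and depth.

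Levels showed little relation to position within the cluster. The 13 genes from Mir379 to Mir543 had a median of 664 CPM, the 13 from Mir495 to Mir134 a median of 284 CPM, and the 12 from Mir668 to Mir3072 a median of 261 CPM. Each of these segments spanned a wide range, from 2.97 to 16635.8 CPM in the first, 0 to 11750.0 in the middle and 0 to 8755.5 in the last. The first held 38% of the cluster's counts in pup 1 and 41.4% in pup 2, the middle one 33.4% and 30.1%, and the last 28.5% in both. Spearman's rho of mean level and gene order was -0.12 over 38 genes, and -0.09 in pup 1 and -0.10 in pup 2. The 7 genes above 5000 CPM were placed 2 in the first, 2 in the middle and 3 in the last segment.

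**Figure D2:**
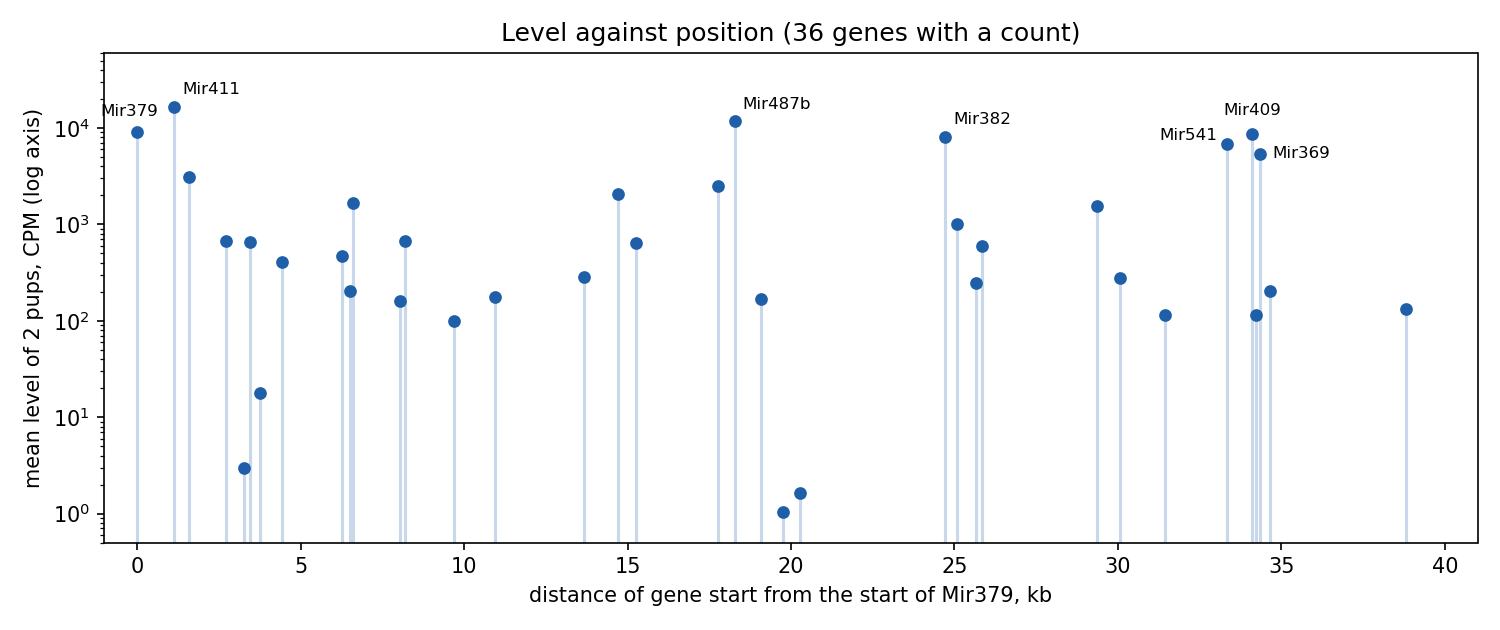
Mean CPM of both pups on a log axis against distance of each gene's start from that of Mir379, for the 36 genes with a count. The labelled genes are those above 5000 CPM, and they occur at the start, in the middle and near the end of the cluster, with low genes beside them.

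Median levels were alike inside and outside the annotated host transcript. GENCODE M21 places 14 members inside Mirg (chr12:109729764-109749460, plus strand), with 9 overlapping an exon and 5 in introns. The other 24, from Mir379 to Mir544, lie upstream of it and have no annotated long host gene. The median was 439.5 CPM inside Mirg and 442.7 CPM outside. Members inside it held 41.6% of the cluster's counts in pup 1 and 37.2% in pup 2.

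On mm10, Mir411 (ENSMUSG00000065477.2) lies at chr12:109710175-109710256, Mir487b (ENSMUSG00000076219.1) at chr12:109727333-109727414 and Mir379 (ENSMUSG00000065498.3) at chr12:109709060-109709125, all upstream of Mirg. Mir382 (ENSMUSG00000065428.3) lies in an exon of Mirg at chr12:109733771-109733846 and Mir369 (ENSMUSG00000065561.2) in an exon at chr12:109743418-109743496. Mir541 (ENSMUSG00000076052.1) lies in an intron at chr12:109742409-109742498. Mir409, measured through the row Gm24321 (ENSMUSG00000093089.1), lies in an intron at chr12:109743158-109743237.

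Counts of adjacent genes differed by large factors. How evenly different sequences entered the libraries was not measured, so these are ratios of counts and may differ from ratios of RNA amounts. Of 37 neighbouring pairs, 25 were at least 4-fold apart in mean level and 15 at least 16-fold apart. The median absolute log2 difference (1 CPM added) was 2.77 between neighbours and 3.37 over all 703 pairs of members. Large differences were thus not particular to neighbours, since members at large lay further apart. Among the 17 pairs with fewer than 500 bases between them, 13 were at least 4-fold apart. The distance between neighbours ran from 20 bases to 4368 bases, with a median of 590.

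The end of the cluster shows this best. Mir409, Mir412, Mir369 and Mir410 follow each other with 51, 49 and 218 bases between them, and their mean levels were 8755.5, 115.6, 5355.1 and 201.7 CPM. Mir409 exceeded Mir412 by 66.0-fold in pup 1 and 87.7-fold in pup 2. Mir369 exceeded Mir412 by 34.6-fold and 60.7-fold, and Mir410 by 25-fold and 27.8-fold. Genes with high and low counts thus alternated within one short stretch in both pups.

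Their RefSeq hairpins are printed here, preceded by that of Mir487b, to set these neighbours side by side. Capitals mark the runs UACUUG, near the base of the stem, and UUCGCU, near the loop.
Mir487b: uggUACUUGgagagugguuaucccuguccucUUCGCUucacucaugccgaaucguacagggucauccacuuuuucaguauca
Mir409: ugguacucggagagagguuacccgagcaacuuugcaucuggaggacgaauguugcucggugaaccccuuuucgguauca
Mir412: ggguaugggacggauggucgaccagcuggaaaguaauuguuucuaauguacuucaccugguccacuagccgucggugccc
Mir369: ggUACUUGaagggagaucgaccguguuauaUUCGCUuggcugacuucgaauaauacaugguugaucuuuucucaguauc
Mir410: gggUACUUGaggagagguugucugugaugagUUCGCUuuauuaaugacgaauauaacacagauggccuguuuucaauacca

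These runs of 6 bases were the ones found in most member hairpins, in a search of the transcribed strand, and they were chosen after the hairpins were seen. Each occurred in 10 of the 35 members with a RefSeq hairpin (28.6%), all but Gm27379, Mir544 and Mir666. In the 970 RefSeq hairpins of other mouse miRNAs, UACUUG occurred in 16 (1.65%) and UUCGCU in 4 (0.412%). At least 1 of the runs was found in 15 member hairpins and both in 5, against 20 and 0 of the others. The hairpins of Mir409 and Mir412 have neither, and those of Mir369 and Mir410 have both, while the mean levels within these pairs differed by 75.7-fold and 26.6-fold. UUCGCU overlaps with UCGCUU, which was found in the same 10 members.

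Members with UACUUG had a median of 652 CPM, and those without it 412 CPM. With UUCGCU the median was 670.5 CPM, and without it 473 CPM. Other runs common in member hairpins went either way. Members with GAGGUU had a median of 412 CPM, and those without it 670.5 CPM. For CGCUUU the medians were 439 and 601 CPM, and for GCUUUA 659 and 473 CPM. GC content of the hairpins ran from 29.1% for Mir376c to 72.3% for Mir3072, with a median of 43.4%, against 51.7% over all 1005 hairpins. Spearman's rho of mean level and hairpin GC was -0.20 over the 35 members with a hairpin, a weak relation among genes that share their libraries.

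The 5 pairs of members that share a seed differed in how close their levels were. Mir379 and Mir411, both among the 8 most abundant members, had means of 8986.3 and 16635.8 CPM, 1.85-fold apart. Mir494 and Mir410 had 473 and 202 CPM, and Mir758 and Mir1197 were both low, at 17.9 and 2.97 CPM. Mir379 and Mir1193 lay further apart, at 8986.3 and 1671.0 CPM, and Mir453 had no count while Mir496a had 278 CPM. Members were also summed by lists named after miRNA families. These lists split some pairs that share a seed, such as Mir379 with Mir1193 and Mir494 with Mir410. The miR-154 list had 14 rows, 11 of them at 10 CPM or more in both pups, and summed to a mean of 39350.4 CPM. The miR-379 list had 7 rows, 6 of them detected, with a sum of 30086.6 CPM, while the 8 rows of the miR-329 list were all detected and summed to 3874.7 CPM. The 3 rows of the miR-376 list were all detected and summed to 3010.7 CPM. Members with a mean of 10 CPM or more were compared between the pups. Pup 2 was higher in 8 of 11 of the miR-154 list and 4 of 6 of the miR-379 list. It was higher in 6 of 8 of the miR-329 list, 3 of 3 of the miR-376 list and 1 of 5 in no list. Of all 288 rows with such a mean, 58.7% were higher in pup 2, and these small counts are no result about the lists.

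The tables hold 4 members only through a row on the strand opposite to the gene. The rows Gm24321, Gm25252, Gm25750 and Mir299b are annotated on the minus strand, opposite to the miRNA genes Mir409, Mir376a, Mir380 and Mir299a that GENCODE M21 places there, and those genes had no rows of their own in the tables. The opposite-strand column held 15292 counts for these rows in pup 1 and 52346 in pup 2, and the same-strand column held 0 and 6. They gave 16.9% and 17.6% of the cluster's counts. In the other 34 members the opposite-strand column held 0 counts in both pups. In the whole table, 11 rows with 10 CPM or more in both pups had more counts on the opposite strand, and 7 of them lie outside the cluster.

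The glands of the pups were then compared. With 1 library per pup there is no test, and 33 members with a mean of 10 CPM or more entered. None was at least 2-fold apart, against 5.21% of the 288 rows with such a mean. The log2 ratio of pup 2 over pup 1 (1 CPM added) ran from -0.53 to 0.66, with a median of 0.13 in the cluster and 0.09 over all 288 rows. It was above 0 for 22 of the 33 members, against 58.7% of all rows. The exact 95% counting interval of the fold lay above 1 for 15 members (39.6% of all rows) and below 1 for 7 (24.0% of all rows), and it included 1 for 11. The members' shares lay near those of all rows, so these counts are no result about the cluster.

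**Figure D3:**
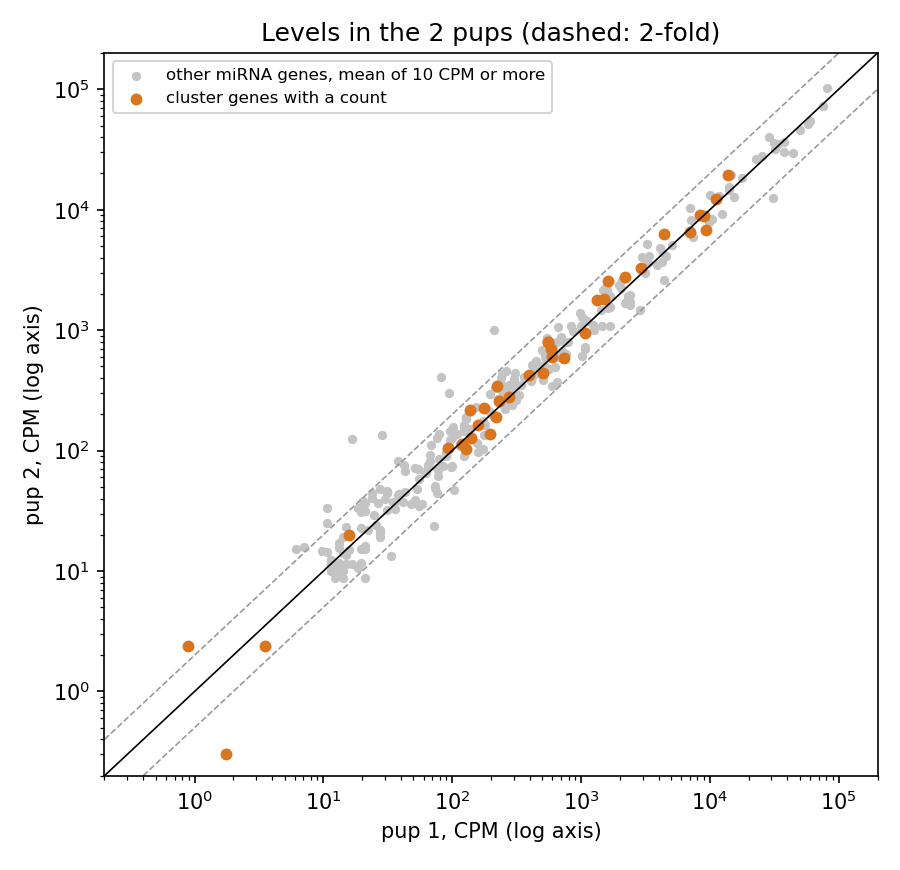
CPM in pup 2 against CPM in pup 1, both on log axes, with cluster genes that have a count in orange and other miRNA genes in grey, the latter from a mean of 10 CPM upwards; the solid line marks equal levels and the dashed lines 2-fold. Every cluster gene with a mean above 10 CPM lies between the dashed lines.

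Among the rows of the cluster, the 3 members with the highest ratio in pup 2 follow each other, apart from Mir654, which had no count. Genes without a row, such as Mir376b, are not in this order. Mir667 had 137.8 and 218 CPM, a ratio of 1.58 (counting interval 1.33 to 1.89). Mir376a had a ratio of 1.57 (1.49 to 1.65), and Mir376c, at 223.6 and 344.7 CPM, one of 1.54 (1.34 to 1.77). Each interval lay above 1, and none reached 2.

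From Mir1193 to Mir487b, 10 consecutive members with 10 CPM or more were higher in pup 2, with log2 ratios from 0.03 to 0.66. This stretch was picked after its values were seen.

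In the other direction, Mir539 had 197.9 CPM in pup 1 and 136.7 in pup 2, a ratio of 0.691 (0.587 to 0.814). Mir382 had a ratio of 0.727 (0.710 to 0.744). Mir323 had 738.7 and 589.3 CPM, a ratio of 0.798 (0.735 to 0.866). Mir411 had a ratio of 1.42 (1.40 to 1.44) and Mir369 one of 1.44 (1.39 to 1.48), while Mir379, the neighbour of Mir411, had 0.986 (0.964 to 1.01). Thus genes of one cluster had counting intervals above and below 1, as did 39.6% and 24.0% of the 288 rows. The intervals take reads as independent, and the spread between 2 pups has no replicate check.

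**Figure D4:**
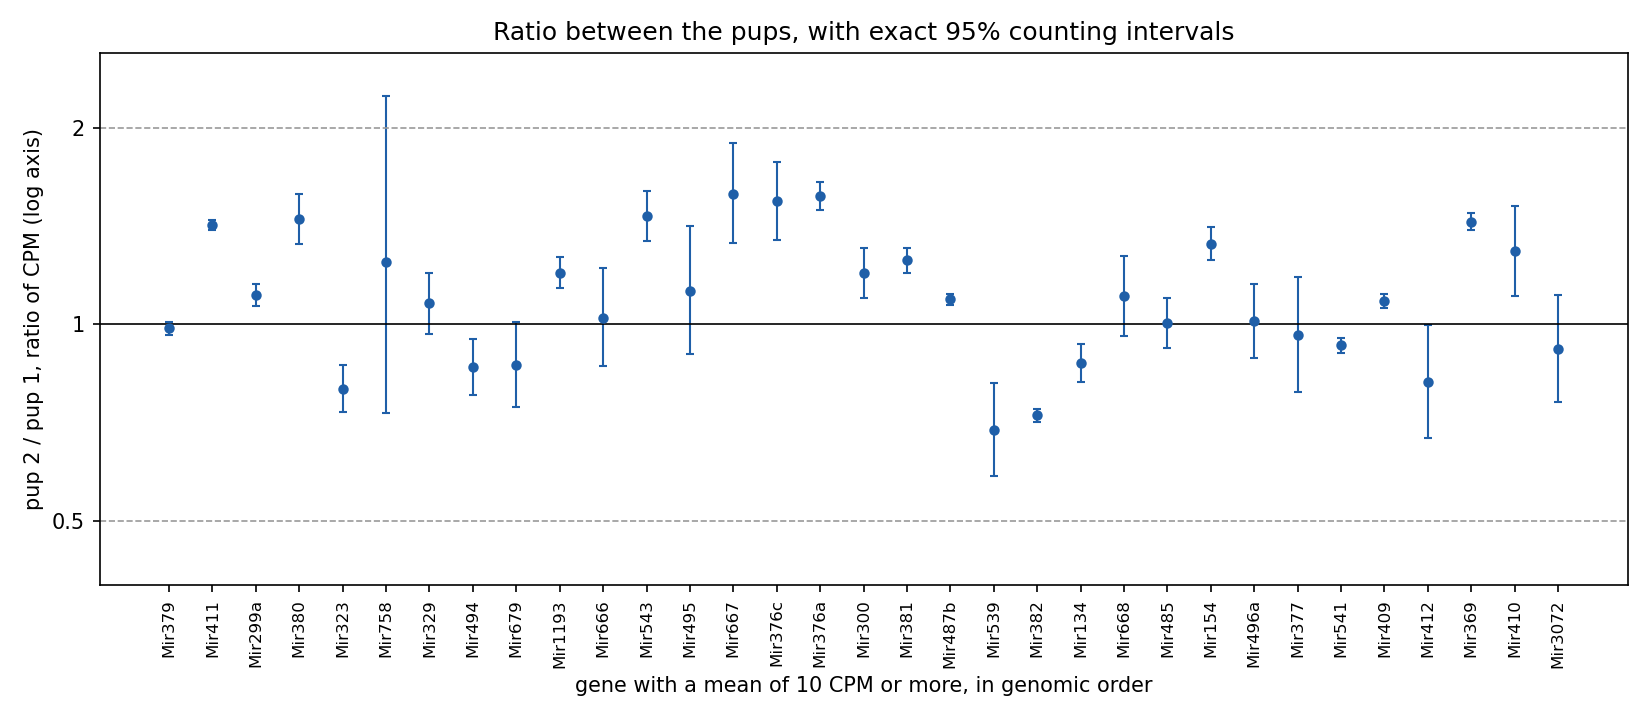
Ratio of CPM in pup 2 over pup 1 on a log axis for the 33 members with a mean of 10 CPM or more, in genomic order, with bars for exact 95% counting intervals and dashed lines at 0.5 and 2. Mir667, Mir376c and Mir376a sit highest and Mir539 and Mir382 lowest, and no point reaches a dashed line, although the bar of Mir758, which rests on 18 and 66 counts, crosses 2.

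Marker lists of the gland and of other tissues were also compared between the pups. Some genes in them differed, and others, such as the erythroid Mir451a at 260.7 and 262.6 CPM, lay close. The hepatocyte miRNA Mir122 had 2979.4 CPM in pup 1 and 4080.5 in pup 2. The striated muscle list had 82.2 and 411 CPM, all from Mir206. Mir1a-1, Mir133a-1 and Mir133a-2 were at 0, which is no reading of muscle RNA either, since these too are known as multi-copy genes. Within the neuroendocrine list, Mir375 was lower in pup 2, at 37585.6 and 30414.9 CPM, while Mir7b was higher, at 1556.9 and 2292.5 CPM. The kidney list had 216 and 225 CPM, with Mir215 lower in pup 2 (72.5 and 23.7 CPM) and Mir192 higher (100.7 and 158 CPM). The erythroid list had 281 and 301 CPM and the pancreas list 0.884 and 2.10 CPM, with Mir216a at 0. Their part in the ratios of the cluster was not tested. Spearman's rho of the log2 ratio with the mean GC content of a gene's mature miRNAs was -0.31 over 33 members and -0.19 over 232 other rows, and its part in the ratios was not tested either.

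The proximal miRNAs of the same domain, with the anti-Rtl1 genes and Mir1247, give the nearest comparison. Their 18 rows held 3.02% of counts in pup 1 (2.99 to 3.055) and 3.10% in pup 2 (3.08 to 3.11), so the cluster had 2.61 and 2.84 times their counts. The list names 21 genes, of which Mir136, Mir3070-1 and Mir3070-2 have no row and are not in this sum. Unlike the cluster, these rows were read from the same-strand column alone; their opposite-strand column held 59 and 133 counts, and with the unstranded column for both lists the ratios were 2.61 and 2.83. Of these rows, 16 had 10 CPM or more in both pups, and the median row lay at 385 CPM. The leading ones were Mir127 with 14264.5 ± 283.7 CPM (SD, n = 2), Mir431 with 7680.8 ± 717.1 and Mir337 with 2159.0 ± 309.3. The median log2 ratio of the 16 proximal rows with a mean of 10 CPM or more was -0.14, beside 0.13 in the cluster, and 1 of them, Mir1247, passed 2-fold. With 2 pups an exact test of the difference between the lists has no power to pass a threshold, and none was made.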

How the data were processed

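For each library the authors deposited a table of unnormalized read counts by miRNA gene, with an unstranded, a same-strand and an opposite-strand column. Per the notes deposited with the files, the assembly is mm10 and the annotation GENCODE M4. The aligner was not given in the sources used here, and the strand of each column was read from the layout and sums of the tables. Per the labels, libraries were restricted to RNA under 30 nucleotides.

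Rows were matched by identifier to GENCODE M21 on the same assembly, which named 1894 of 1973 rows. The 4 rows that name no gene were left out of library sizes: multi-mapped reads were 34.95% and 32.2%, unmapped reads 10.6% and 11.2%, reads outside genes 4.03% and 3.86%, and ambiguous reads 0. The libraries differed by more than independent counting of reads would give (chi-square 52554.5 on 637 degrees of freedom). That statistic takes reads as independent, which PCR copies are not, and measures no spread between replicate libraries.

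CPM, shares and ratios were computed with Python 3.11.15 and scipy 1.17.1, and scaling alternatives with edgeR 4.0.16 and DESeq2 1.42.0. The interval code was checked on simulated counts drawn independently. That check covers the code alone, since these libraries differed by more than independent counting would give. Background counts took the same-strand column for all rows but the 4 named. Full values were given for the 12 members with the highest mean, the 4 genes of the opposite-strand column, members without a count and the 3 largest ratios each way; others named were chosen after their values were seen. Other count columns, denominators, scalings, thresholds and filters were tried, and each pup was left out. The members, the column used for each and the gene lists were chosen with earlier results of these data known.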

Additional observations from a re-analysis of the deposited data

Results flagged for a closer look

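The row Mir299b, which stands for Mir299a, had 6 counts in pup 2 in the same-strand column, which was not used for its level. Pup 1 had 0 such counts, for which the upper limit is 3 counts.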

How the results depend on the processing

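With the same-strand column for every member, the 4 opposite-strand genes drop to 0 or nearly so. The share then fell to 7.00%, its excess over the proximal miRNAs from 5.28 to 3.89 percentage points and the median log2 ratio to 0.11, while rho of level and order was -0.026. With all reads as the denominator, the share was 4.37% and the excess 2.77 points. Without Mir411, the share was 6.70% and rho -0.043, and without members at 0 rho was -0.10. The median log2 ratio was 0.21 with TMM scaling, 0.15 with DESeq2 size factors, 0.12 without a filter and 0.12 at a mean of 100 CPM. TMM scaling moved the median of all rows by 0.08 and placed 24 members higher in pup 2, with Mir379 and Mir377 changing sign; DESeq2 size factors placed 23 higher, with Mir379 changing sign. Without a filter, 1 member, Gm27379 with 2 and 1 counts, passed 2-fold; under each other setting run, 0 did. With the same-strand total alone as denominator, chosen after seeing the data, the share was 8.46% and the excess 5.36 points. Without replicate 1 or replicate 2, the share ran from 7.89% to 8.79%, the excess from 4.87 to 5.69 points, rho of level and order from -0.097 to -0.090, rho of level and hairpin GC from -0.21 to -0.18, and 33 members were detected in each. The number detected ran from 29 to 36 over all settings. Leaving out a pup gives no ratio between pups. No paired analysis was possible because the labels give a single group. Depth limits the 5 members below 10 CPM, whose levels rest on at most 8 counts per pup.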
